A study of Mus musculus with 8 samples.

Results

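The genes that encode the translation initiation factors (eIFs) and elongation factors (eEFs) were followed in mouse granulosa cells, the hormone-producing cells that line the ovarian follicle. Members were the rows of the deposited tables whose gene name begins with Eif or Eef and a digit. Names that end in -ps (8 rows) and the 4 Eif2ak genes, which encode kinases rather than factors, were left out. This gave 63 genes of 35087 named rows, and all 63 passed the filter on low counts. The cells were taken by laser microdissection from ovary cryosections, and polyadenylated RNA was amplified with a Smart-seq2 protocol. All mice were female and Hif1a flox/flox, so that Cre recombinase can remove Hif1a, which encodes the HIF1 subunit that oxygen destabilises. The cKO group (2 libraries) also carried Foxl2-CreERT2, a Cre that is driven by the granulosa cell gene Foxl2 and becomes active with tamoxifen. The WT group (6 libraries) lacked Cre. Mice of both groups were 3 weeks old when tamoxifen began, at 100 mg/kg on each of 5 days, and the ovaries were collected 7 days after dosing ended. The genotype label of the cKO samples reads knockdown, and the sample descriptions call all 8 libraries cKO, also the 6 whose titles read WT. Titles were followed, and this doubt applies to every comparison. The number of animals and the follicle stage are not given in the sources used here. Some libraries may share an animal, and p-values measure the spread between libraries only.

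Translation starts when the small ribosomal subunit, held open by eIF1, eIF1A and the eIF3 complex, receives the initiator tRNA from eIF2 and is brought to the mRNA cap by eIF4F, which consists of the cap-binding eIF4E, the helicase eIF4A and the scaffold eIF4G. The guanine nucleotide exchange factor eIF2B recharges eIF2, eIF5B joins the ribosomal subunits, and eIF6 keeps free large subunits apart from small ones. In elongation eEF1A delivers aminoacyl-tRNAs, the eEF1B subunits recharge it, eEF2 moves the ribosome along, and eIF5A helps it past difficult stretches. Growth signals through mTORC1 release eIF4E from its inhibitors, the eIF4E-binding proteins. Granulosa cells of a growing follicle divide and secrete hormones, and both depend on protein synthesis.

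No member passed the test of cKO against WT in edgeR's quasi-likelihood fit (0 of 63 at an adjusted p under 0.05; 0% of the 15102 genes tested passed). The fitted log2 fold change was negative, that is lower in cKO, for 46 of the 63 genes and positive for 17, with a median of -0.67. Over all genes tested 52.7% were negative and the median was -0.08. With DESeq2's size factors in place of TMM the median of all genes was 0.05 and that of the members -0.56, so the members stood about as far below the median gene under both scalings. At an unadjusted p under 0.05, 13 members (20.6%) were lower in cKO, against a background of 8.89% of all genes, and 0 were higher, against 3.4%. The 13 were Eif6, Eif1b, Eef1a1, Eef2, Eif4a3, Eif4ebp1, Eif5a, Eef1akmt1, Eif2s3x, Eif1ax, Eif4h, Eif3b and Eif3e. Both cKO libraries lay below every WT library in 5 genes (7.94%; background 6.41%), namely Eif6, Eif1b, Eif4a3, Eif3b and Eif2b4, and above every WT library in 0 (background 6.02%). With DESeq2, 3 of 53 members that received an adjusted p were called, all lower (background 3.08%): Eif6 (adjusted p = 0.00195), Eef1a1 (0.0256) and Eef2 (0.0372). In these bulk samples, fewer cells of a type and less RNA per cell cannot be told apart.

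The count of 13 rested on single libraries. It was 2 without cKO 2 (Eif6 and Eif1b), which is 3.17% of the members against 3.5% of all genes in that fit. It was 19 without cKO 1 (30.2% against 10.2%), 22 without WT 1 (34.9% against 13%) and 7 without WT 4, without WT 5 or without WT 6 (11.3% each, against 6.24% to 6.95%). The larger share among members was thus present without cKO 1 and not present without cKO 2. The median over the 63 genes was -1.38 with cKO 2 as the only cKO library and -0.22 with cKO 1 as the only one. When the count of detected genes entered the fit, 0 members were lower at an unadjusted p under 0.05 (2.31% of all genes were). The groups do not overlap in that count, so this fit cannot separate it from the group. Eif6 was lower at that threshold in 19 of 20 alternative analyses, Eif1b in 17, and Eef1a1, Eef2, Eif4ebp1 and Eif5a in 16 each.

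**Figure D1:**
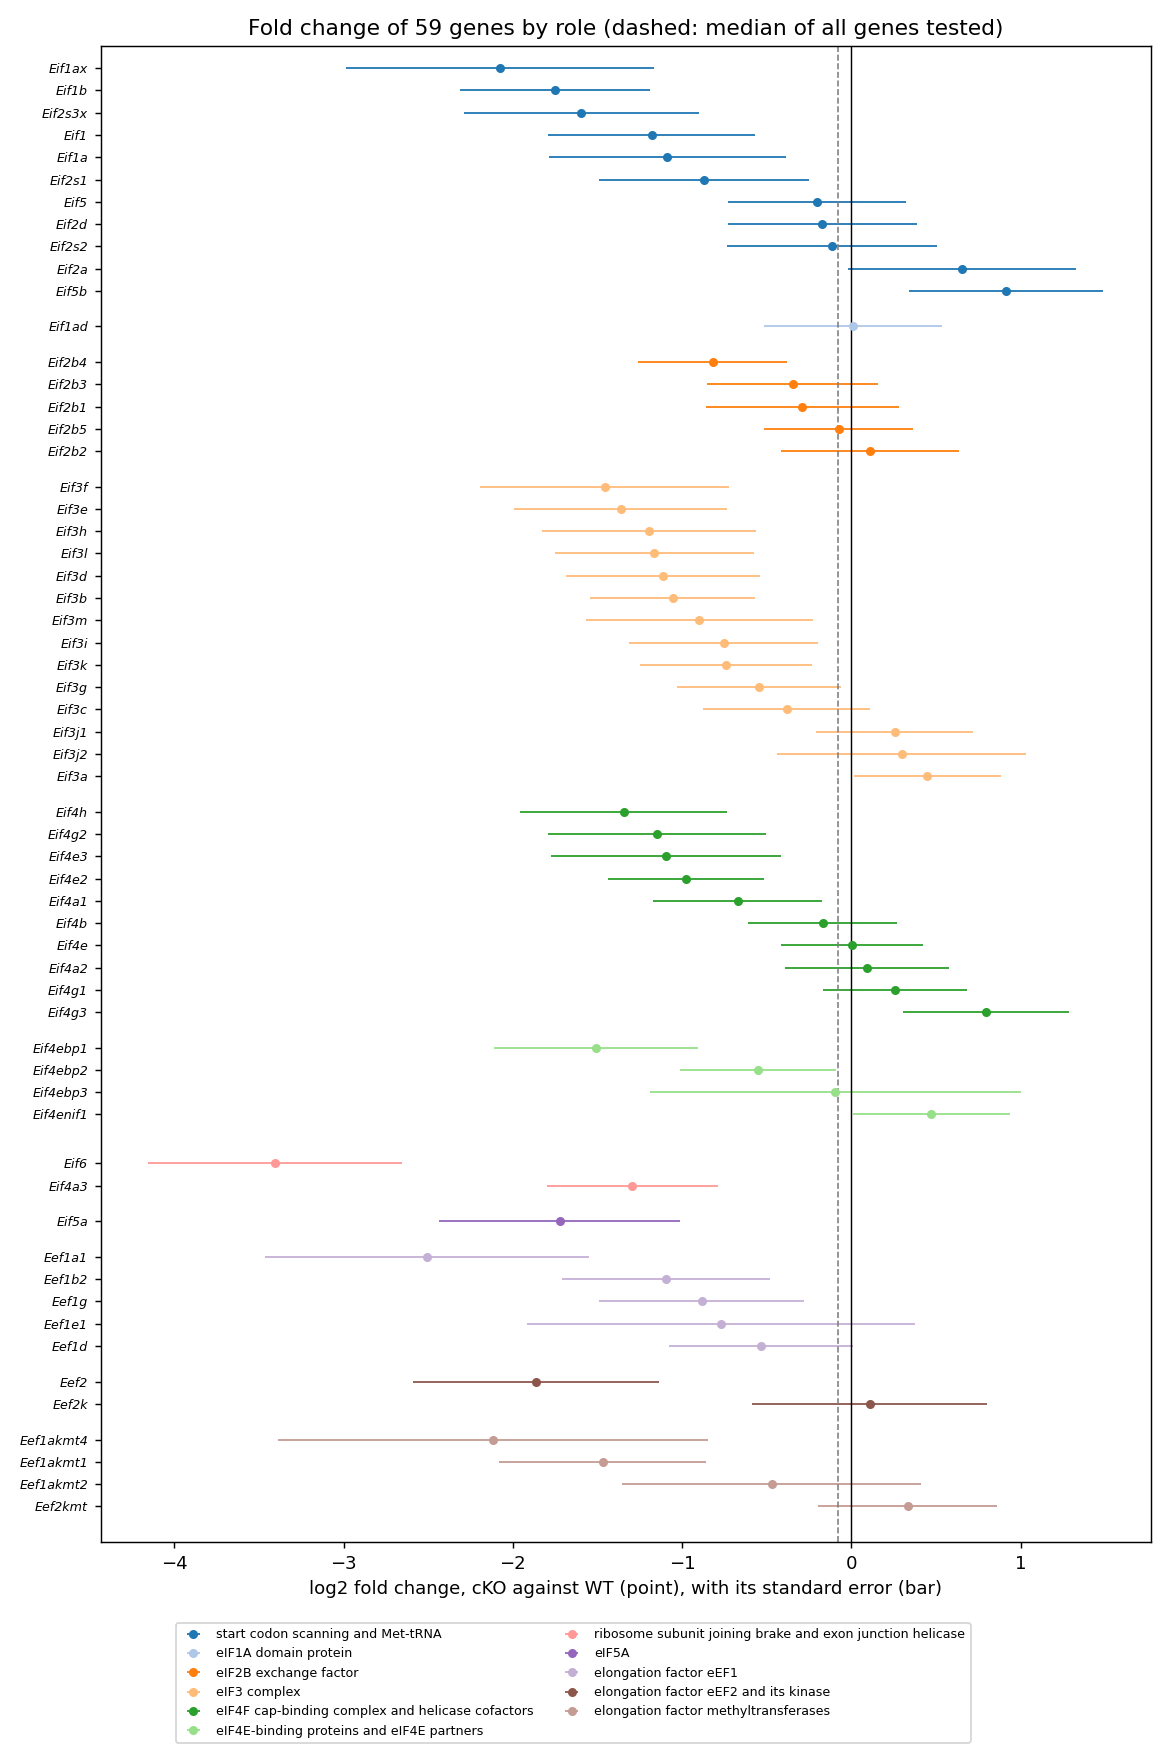
Fitted log2 fold change of cKO against WT (horizontal axis; points, with bars of 1 standard error) for 59 member genes grouped by role (colours); the 4 genes with a mean under 10 normalised CPM in both groups are not drawn. The dashed line marks the median of all genes tested, -0.08; Eif6 stands farthest to the left at -3.40, and Eif5b farthest to the right at 0.91.

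The libraries differed in ways that run with the groups. Depth was 2054584 and 651426 reads on named genes in cKO and from 1594803 to 4719293 in WT, so 3 reads correspond to 1.46 and 4.61 CPM in cKO and to 0.636 to 1.88 in WT. The mitochondrial genome took 8.87% and 10.5% of reads in cKO and from 1.42% to 3.65% in WT (exact two-sided permutation test over samples, p = 0.0357, the smallest that 2 against 6 libraries allow; 0.143 after Benjamini-Hochberg adjustment over 8 measures). Genes with at least 5 reads numbered 12120 and 12847 in cKO and from 13597 to 14727 in WT (p = 0.0357 in the same exact test, adjusted 0.143). All 10 granulosa markers had reads in every library, and their summed share was 0.443% and 0.167% in cKO and from 0.362% to 5.15% in WT (exact p = 0.179, adjusted 0.476). Inha had the most reads of these markers in every library, and the single markers did not all follow the sum. Of the oocyte markers 9 of 10 had a read in cKO, with Dppa3 at 0 in both, and their share was 0.00338% to 0.00501% in cKO and 0.000671% to 0.180% in WT. Reads of stroma (8 of 8 markers), theca (7 of 7), endothelium (7 of 7) and blood (8 of 8) were found in cKO, at 0.0476% to 0.135%, 0.0556% to 0.0686%, 0.0316% to 0.0321% and 0.00860% to 0.0422% of reads. The WT ranges for these 4 were 0.00375% to 0.122%, 0.0515% to 0.140%, 0.00882% to 0.0518% and 0.00223% to 0.0343%. Ephx2 had the most reads of the theca markers in every library (419 and 425 CPM in cKO, 393 to 1177 in WT). Cyp17a1 did not follow it, at 78.4 and 15.4 CPM in cKO and 0 to 163 in WT. The part of these library differences in the results below was not tested. The fit with detected genes as a covariate cannot measure it, because the groups do not overlap in that count. Hif1a itself stood at 22.3 and 13.7 normalised CPM in cKO and between 35.5 and 106.2 in WT (log2 fold change -1.84 ± 0.58, SE; adjusted p = 0.369).

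Together the 63 genes took 1.11% and 0.726% of reads in cKO 1 and cKO 2 (mean 0.919% ± 0.273, SD, n = 2) and from 1.04% to 1.96% in WT (1.59% ± 0.348, SD, n = 6). WT 1, at 1.04%, lay below cKO 1, and the groups overlapped. Much of the range came from Eef1a1, whose reads made up 8.71% and 5.84% of all member reads in cKO, 6.97% in WT 1 and from 12.9% to 33.9% in WT 2 to 6. Without Eef1a1 and Eef2 the shares were 0.949% and 0.663% in cKO and 0.910% to 1.28% in WT.

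cKO 2 had the lowest level of all 8 libraries in 34 of the 63 genes, WT 1 in 12, WT 3 in 5 and cKO 1 and WT 4 in 4 each. The same count over all genes is not given here, and cKO 2 had the fewest reads (651426). WT 1 lay at or below the higher cKO library in 52 genes, including 9 of the 13 with a low p. WT 3 did so in 35 genes and in 1 of the 13, and WT 2, 4, 5 and 6 in 18 to 28 genes and in 0 of the 13. Against the mean of the WT libraries, the median member stood at -0.07 in cKO 1, -1.13 in cKO 2 and -0.69 in WT 1 on the log2(CPM + 1) scale. In WT 2 to 6 it lay between -0.27 and 0.41. The spread among WT libraries was wide for these genes: the highest WT value was a median of 3.61 times the lowest over the 59 members with a read in every WT library (3.87 over all genes), and it was more than 4 times the lowest in 22.

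**Figure D2:**
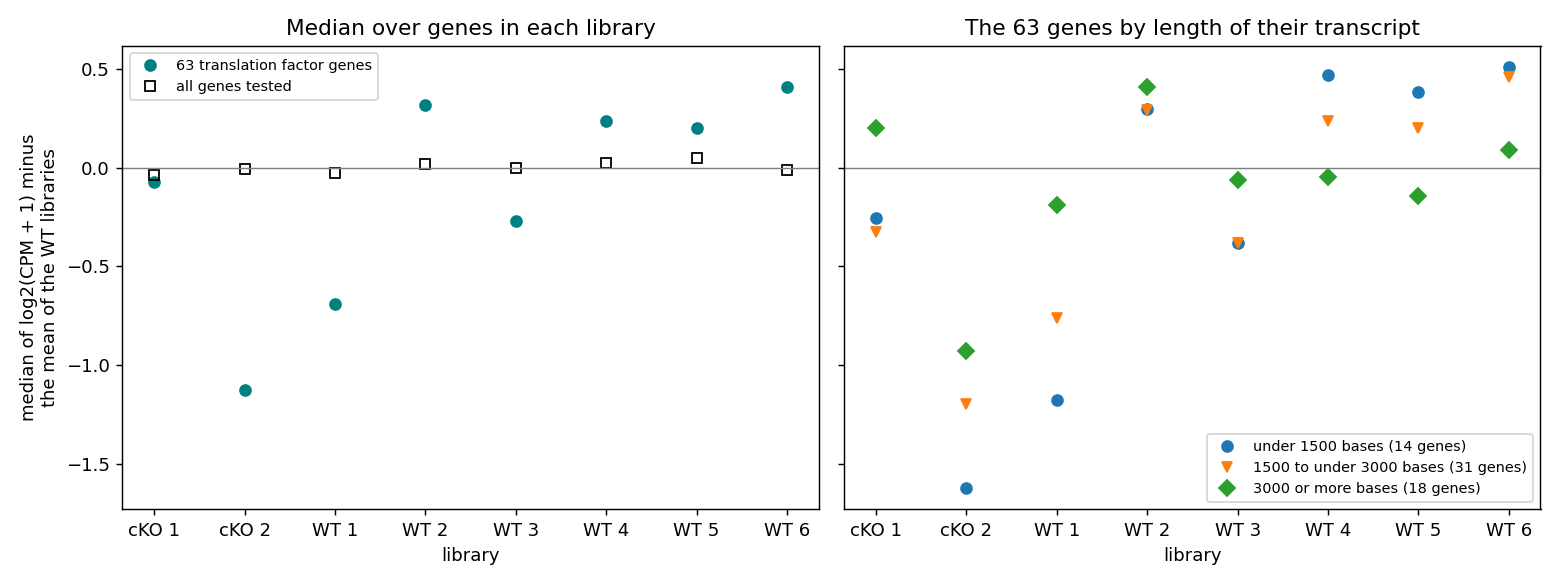
Left, median over the 63 member genes (filled circles) and over all genes tested (open squares) of the log2(CPM + 1) level in each library minus the mean of the WT libraries; right, the member genes split by transcript length. The member median is lowest in cKO 2 (-1.13) and WT 1 (-0.69) while the median of all genes stays between -0.04 and 0.05.

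Below, levels are normalised CPM (CPM after scaling of library sizes), with both cKO libraries first and then the lowest, median and highest WT library, and log2 fold changes of cKO against WT carry their standard error. The elongation factors held the most abundant members. Eef1a1, the carrier of aminoacyl-tRNA (chromosome 9, 78478449 to 78489151, minus strand; GRCm38), stood at 1009.9 and 377 normalised CPM in cKO 1 and 2 and from 636 to 6779 in WT (median 3705). The 3 highest libraries were WT 4 (6779), WT 5 (6642) and WT 6 (5144), while WT 1, at 636, lay between the cKO libraries. The log2 fold change was -2.51 ± 0.96 (SE; adjusted p = 0.374), and it ranged from -3.45 without cKO 1 to -2.05 without cKO 2. With detected genes as a covariate it was -0.35. WT 3 to 6 were also the libraries with the highest granulosa marker share, 1.99% to 5.15%, against 0.167% to 0.649% in the other 4. Inha made up most of that share in WT 3 to 6 (11640.5 to 37356 CPM, against 732 to 4158 in the other 4). The markers did not all follow it: Amh stood at 2.57 to 174 CPM in WT 3 to 6 and 252 to 957 in the other 4, and Foxl2 and Amhr2 overlapped. The part of the marker share in the Eef1a1 values was not tested. Eef1a2, the paralogue of muscle and neurons, had 4 reads in the cKO libraries together and no more than 6.63 normalised CPM in any WT library, so its fold change was not read.

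Eef2, the translocase, stood at 687 and 180.3 normalised CPM in cKO 1 and 2 and from 517 to 2174 in WT (median 1691). As with Eef1a1, cKO 1 exceeded WT 1 (517), and all other WT libraries were at 1367 or above. Its log2 fold change was -1.86 ± 0.72 (SE; adjusted p = 0.375), from -3.20 without cKO 1 to -1.27 without cKO 2, and -0.69 with the covariate. The kinase that inhibits eEF2, Eef2k, stood at 58.9 and 13.7 normalised CPM against 8.19, 35.4 and 55.4, with a log2 fold change of 0.11 ± 0.70 whose sign depended on which cKO library was kept (-1.39 without cKO 1, 0.71 without cKO 2).

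The subunits of eEF1B, which exchange the nucleotide on eEF1A, had smaller differences. Eef1b2, the alpha subunit, stood at 249 and 69.7 normalised CPM in cKO 1 and 2 and from 158 to 517 in WT (median 389.6), a log2 fold change of -1.10 ± 0.61 (adjusted p = 0.474). The gamma subunit Eef1g stood at 596 and 175 normalised CPM against 374, 716 and 1038, with a log2 fold change of -0.88 ± 0.61. The delta subunit Eef1d stood at 336 and 163 normalised CPM against 234, 281 and 681, with a log2 fold change of -0.53 ± 0.54. In all 3 genes cKO 2 was below every WT library and cKO 1 was within the WT range, so that the groups overlapped. The values turned on which cKO library was kept: without cKO 1 and without cKO 2 they were -2.36 and -0.53 for Eef1b2, -2.09 and -0.32 for Eef1g, and -1.22 and -0.15 for Eef1d. Of the 6 genes grouped as eEF1 by name (Eef1a1, Eef1a2, Eef1b2, Eef1d, Eef1e1 and Eef1g), 5 were lower in cKO (83.3%; 52.7% of all genes). The other was Eef1a2, whose fold change was not read. At an unadjusted p under 0.05, 1 of the 6 was lower (16.7%; 8.89% of all genes). Their summed level was 2204 and 796 normalised CPM in cKO and 1458 to 8219 in WT. Among the 4 methyltransferase genes, whose products modify lysines of eEF1A or, for Eef2kmt, of eEF2, 3 were lower and 1 higher. Eef1akmt1 was the one with a low p (17.3 and 23.2 normalised CPM against 19.8, 54.1 and 88.5; log2 fold change -1.47 ± 0.61, adjusted p = 0.38), with WT 1 at 19.8, between the cKO libraries. Eef2kmt stood at 77.6 and 35.5 normalised CPM against 16.8, 52.4 and 61.5, with a log2 fold change of 0.33 ± 0.53.

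**Figure D3:**
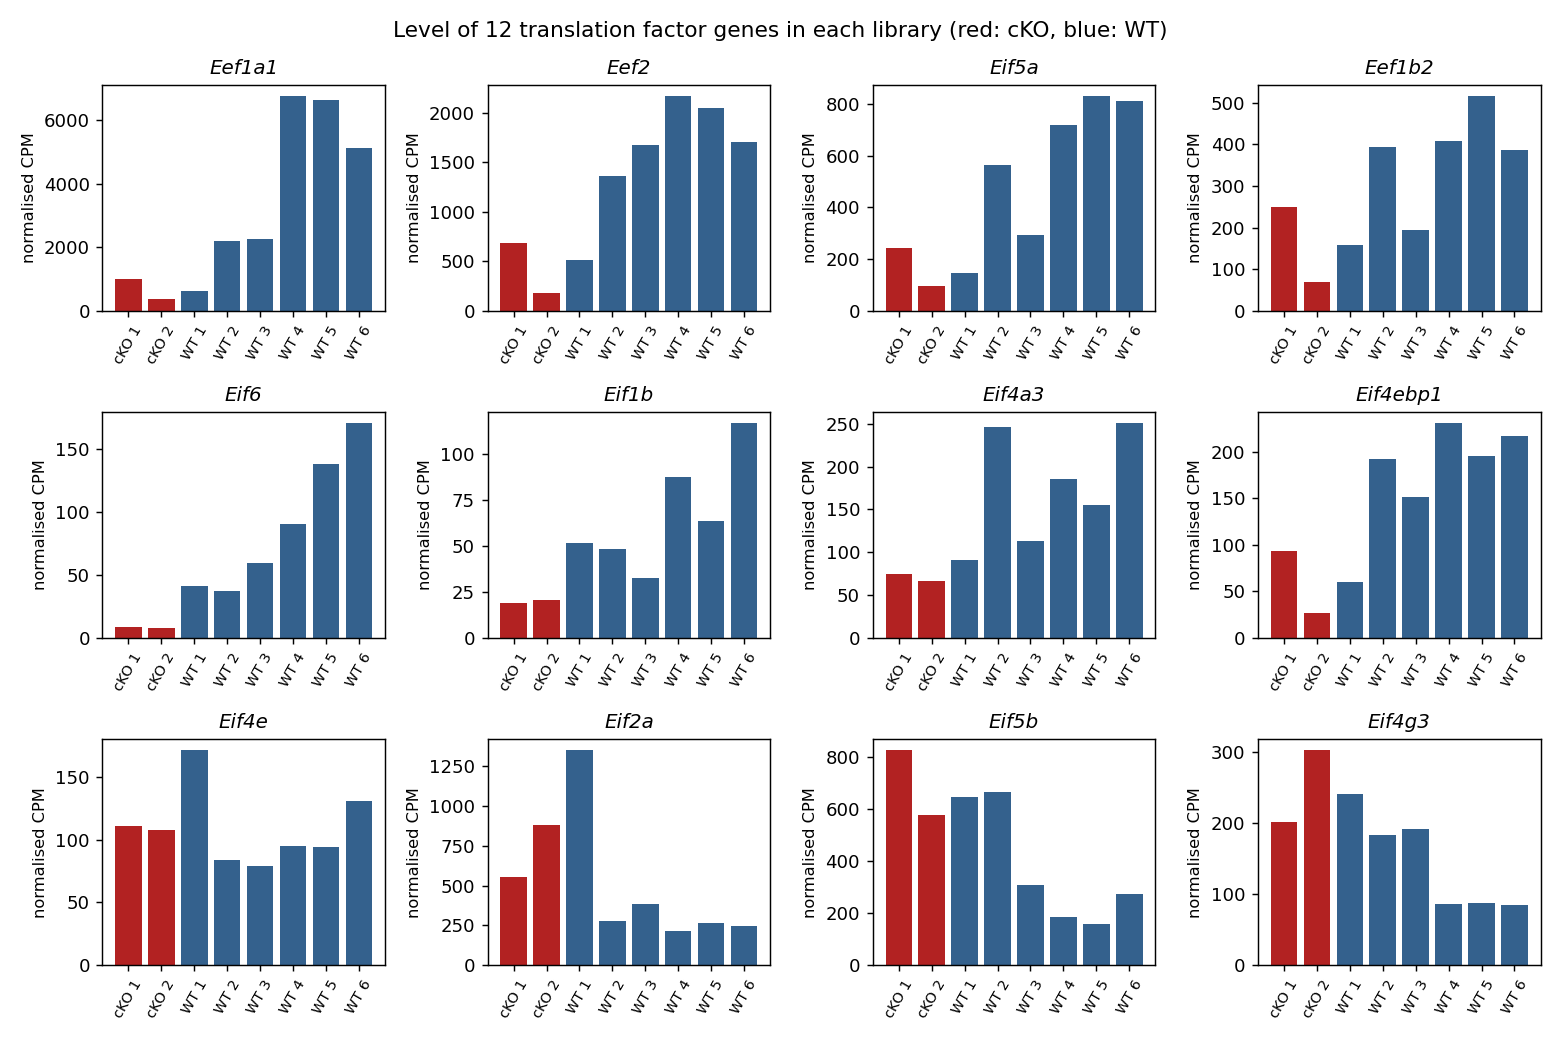
Normalised CPM (vertical axes, from 0) of 12 member genes in each of the 8 libraries, cKO in red and WT in blue. In Eif6, Eif1b and Eif4a3 both cKO bars are below every WT bar; in Eef1a1, Eef2, Eif5a and Eif4ebp1 WT 1 is as low as a cKO library; in Eif2a, Eif5b and Eif4g3 the cKO bars are high together with WT 1.

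Eif5a, the elongation and termination helper that carries the modified lysine hypusine, stood at 243 and 95.6 normalised CPM in cKO 1 and 2 and from 146 to 832 in WT (median 642). The log2 fold change was -1.72 ± 0.71 (adjusted p = 0.38), from -2.62 without cKO 1 to -1.28 without cKO 2, and -0.38 with detected genes as a covariate. WT 1 (146) was again between the cKO libraries, and WT 2 and WT 4 to 6 were at 564 or more. Eif5a2 had 6 reads in cKO and at most 4.29 normalised CPM in WT.

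The start sites of 2 elongation factor genes, Eef1a1 and Eef2, and of 1 initiation factor gene, Eif3f, are shown as examples because mRNAs of the translation machinery are known for a pyrimidine tract at their 5′ end (the TOP motif), through which mTORC1 controls them, and because HIF binds DNA at the core ACGTG or GCGTG. In each line 40 bases before and 20 bases from the annotated start are given, from RefSeq on GRCm38.p6, read 5′ to 3′ on the gene's strand, with capitals for a C followed by 6 or more pyrimidines. In Eef1a1 the run lies across the annotated start. In Eif3f the run also lies across it: the pyrimidines begin before the start, and the capitals mark the part from the start on. Eef2 has no run of that length in the window, which ends in pyrimidines that may run on past it.
Eef1a1 chr9:78481705-78481764 minus strand: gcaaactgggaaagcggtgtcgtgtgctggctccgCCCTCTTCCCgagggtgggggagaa
Eif3f chr7:108934375-108934434 plus strand: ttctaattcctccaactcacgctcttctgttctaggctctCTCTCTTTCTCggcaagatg
Eef2 chr10:81176591-81176650 plus strand: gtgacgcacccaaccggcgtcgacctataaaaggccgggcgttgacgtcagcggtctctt
Windows were found for 48 of the 63 members. A gene with several annotated starts has several windows, and it was counted if any of them held the run or core searched for. The number of starts per gene was not matched between members and other genes. A run was counted where a C and the next 6 pyrimidines lay inside the 20 bases on either side of the start. Such a run was in 15 of the 48 (31.2%), against 22.6% of the 11142 genes tested that have a window and 21.4% of all 27025 genes with one. A C with at least 4 pyrimidines exactly at the annotated start was in 2 members, Eif3f and Eif2s3x (4.17%; 2.90% of genes tested). The median log2 fold change was -0.47 in members with the longer run and -0.55 in those without. Whether the annotated starts are the ones used in these cells was not tested. A run near them, or its absence, therefore does not settle whether an mRNA has a TOP motif.

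ACGTG was searched on either strand in the 300 bases from 250 before to 50 after each annotated start. It was in 21 of the 48 members with a window (43.8%), against 27.7% of genes tested and 21.8% of all genes with a window. GCGTG was in 29 (60.4%; 52.6% of genes tested), and at least 1 of the 2 in 35 (72.9%; 63.9%). The letters CACGTG read the same on both strands and were counted once per gene. The median log2 fold change was -0.55 in members with either core and -0.47 in those without, and no binding data were analysed. The lines below show the sites of 5 members with ACGTG on the gene's strand (capitals) in a window with little or no annotated exon. The site of Eef2 lies 42 bases before the start, that of Eif5a 73 bases before one of its annotated starts, and those of Eif4g1, Eif4h and Eif4a1 lie 53, 95 and 188 bases before.
Eef2 chr10:81176571-81176611 plus strand: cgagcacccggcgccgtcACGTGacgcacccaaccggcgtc
Eif5a chr11:69921437-69921477 minus strand: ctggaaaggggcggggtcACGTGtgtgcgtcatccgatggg
Eif4g1 chr16:20672656-20672696 plus strand: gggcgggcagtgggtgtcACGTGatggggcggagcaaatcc
Eif4h chr5:134639482-134639522 minus strand: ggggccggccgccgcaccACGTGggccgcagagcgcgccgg
Eif4a1 chr11:69672589-69672629 minus strand: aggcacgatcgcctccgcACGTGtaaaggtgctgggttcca
These 5 genes did not share a direction: Eef2 and Eif5a had the values above, Eif4h was lower (log2 fold change -1.35 ± 0.61), Eif4a1 had a log2 fold change of -0.67 ± 0.50 and Eif4g1 had a log2 fold change of 0.26 ± 0.43. All 5 sites shown read CACGTG, and which protein, if any, binds there was not tested. A match describes the letters and not a bound site.

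Eif6 had the smallest p of all members. Its product, the anti-association factor of the large ribosomal subunit, also takes part in the making of that subunit. Eif6 (chromosome 2, 155819832 to 155826925, minus strand) stood at 8.63 and 8.20 normalised CPM in cKO 1 and 2 and from 37.2 to 171 in WT (median 75.1). The cKO libraries, with 17 and 6 reads, lay close together, below the lowest WT library, WT 2 (37.2, 136 reads). The log2 fold change was -3.40 ± 0.75 (SE; adjusted p = 0.369), between -3.54 and -3.02 when single libraries were left out. It was -2.13 with libraries numbered 1 and 2 alone and -2.40 with detected genes as a covariate. edgeR without a filter on low counts gave an adjusted p of 0.00014, so the call at the threshold depended on the tool and the filter. Within WT, Eif6 varied 4.6-fold, from WT 2 and WT 1 (41.2) to WT 6 (171).

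Eif4a3, the helicase of the exon junction complex, which marks spliced mRNAs, also lay lower in both cKO libraries. It stood at 74.6 and 66.9 normalised CPM in cKO 1 and 2 and from 91.2 to 251 in WT (median 169.9). The log2 fold change was -1.29 ± 0.51 (adjusted p = 0.375; -1.44 to -1.03 with single libraries left out), and the gap to WT 1 (91.2) was small beside the WT spread.

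Among the factors that select the start codon and bring the initiator tRNA, 9 of 12 were lower in cKO (75%; 52.7% of all genes), with a median of -0.54. Of the 12, 3 (25%) were lower at an unadjusted p under 0.05, against 8.89% of all genes. Eif1b, a close copy of the start codon fidelity factor Eif1 (chromosome 9, 120492232 to 120495330, plus strand), stood at 19.3 and 20.5 normalised CPM in cKO 1 and 2 and from 32.4 to 117 in WT (median 57.5). The cKO libraries lay close together and below WT 3, the lowest WT library. The log2 fold change was -1.75 ± 0.56 (adjusted p = 0.369), between -1.87 and -1.41 with single libraries left out. Eif1 itself stood at 243 and 68.3 normalised CPM against 129, 414 and 445, with a log2 fold change of -1.18 ± 0.61 (adjusted p = 0.444). Here cKO 1 was above WT 1 (129) and the value ran from -2.44 without cKO 1 to -0.61 without cKO 2. Eif1ax, the X-linked gene of eIF1A, stood at 37.0 and 5.46 normalised CPM against 12.1, 94.8 and 192, with a log2 fold change of -2.07 ± 0.91 (adjusted p = 0.387), and WT 1 (12.1) lay between the cKO libraries. Eif1a stood at 19.3 and 5.46 normalised CPM against 10.9, 27.7 and 46.7, with a log2 fold change of -1.09 ± 0.70.

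The 3 subunits of eIF2 differed among themselves. The alpha subunit Eif2s1, which is phosphorylated by the stress kinases, stood at 44.7 and 28.7 normalised CPM against 22.5, 62.8 and 127, with a log2 fold change of -0.87 ± 0.62 (adjusted p = 0.566), and its sign turned (0.30) with libraries numbered 1 and 2 alone. The beta subunit Eif2s2 stood at 525 and 206 normalised CPM against 217, 299 and 926, with a log2 fold change of -0.12 ± 0.62. The X-linked gamma subunit Eif2s3x stood at 20.3 and 26.0 normalised CPM against 13.7, 64.7 and 140.3, with a log2 fold change of -1.59 ± 0.69 (adjusted p = 0.386); WT 1, at 13.7, was the lowest library. Its Y-linked copy Eif2s3y, in a series of female mice, had 9 reads in cKO and between 0.226 and 7.69 normalised CPM in WT. The coding sequences of the 2 are 86.3% identical, so reads can be shared between them, and these values are uncertain. The exchange factor eIF2B had 4 of 5 subunit genes lower, none at an unadjusted p under 0.05, with a median of -0.29. Of these 5, Eif2b4, the gene of the delta subunit, was the one below WT in both cKO libraries (45.7 and 61.5 normalised CPM against 69.8, 86.6 and 128; log2 fold change -0.82 ± 0.44).

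Eif5b and Eif2a stood on the other side. Eif5b, the GTPase that joins the ribosomal subunits, stood at 826 and 578 normalised CPM in cKO 1 and 2 and from 158 to 665 in WT (median 290.4), a log2 fold change of 0.91 ± 0.57 (adjusted p = 0.518). WT 1 (647) and WT 2 (665) were above cKO 2, and WT 3 to 6 were at 306 or less. Its exons share 1643 bases with those of Rev1 on the other strand, and the library method does not mark strand. Eif2a, an alternative carrier of initiator tRNA that is distinct from the eIF2 alpha subunit, stood at 552 and 881 normalised CPM in cKO 1 and 2 and from 216 to 1351 in WT (median 269). WT 1, at 1351, was the highest of all 8 libraries, and the other WT libraries were at 382 or less, below both cKO libraries. The log2 fold change was 0.65 ± 0.67 (adjusted p = 0.698) with all libraries and 1.39 without WT 1.

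The eIF3 complex, the platform that links the small subunit to the mRNA, had 2 of 14 genes lower at an unadjusted p under 0.05 (14.3%; 8.89% of all genes). By sign alone 11 of the 14 were lower in cKO (78.6%; 52.7% of all genes), with a median of -0.83. The lower ones included Eif3f (218 and 32.8 normalised CPM against 91.8, 372 and 525; log2 fold change -1.46 ± 0.73), Eif3e (88.3 and 17.8 normalised CPM against 69.2, 149.8 and 199.9; log2 fold change -1.36 ± 0.63) and Eif3b (157 and 109 normalised CPM against 178, 252 and 412; log2 fold change -1.06 ± 0.49). Of these, Eif3b had both cKO libraries below every WT library, and Eif3e and Eif3f had cKO 1 inside the WT range. The small subunit Eif3k stood at 348 and 116 normalised CPM against 276, 383 and 493, with a log2 fold change of -0.74 ± 0.51 (adjusted p = 0.555; -1.81 without cKO 1, -0.22 without cKO 2). Eif3a, the largest scaffold subunit, stood at 439 and 392 normalised CPM against 199, 303 and 427, with a log2 fold change of 0.45 ± 0.43 (adjusted p = 0.676): the subunits of the one complex were not all lower. Eif3j1 and Eif3j2 share 783 aligned coding bases at 100% identity, and their reads cannot be told apart with confidence.

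In the cap-binding complex the summed levels of the groups overlapped. Of 10 genes 6 were lower and 4 higher, with a median of -0.42. At an unadjusted p under 0.05, 1 was lower (10%; 8.89% of all genes). The summed level was 1996 and 1406 normalised CPM in cKO and 1464 to 2609 in WT. Eif4e, the cap-binding protein, stood at 111 and 108 normalised CPM in cKO 1 and 2 and from 79.2 to 171 in WT (median 94.8), a log2 fold change of 0.00 ± 0.42 (adjusted p = 0.999), whose sign turned in 7 of 20 alternatives. The helicase Eif4a1 stood at 459 and 249.97 normalised CPM against 323, 569 and 752, with a log2 fold change of -0.67 ± 0.50 (-1.24 without cKO 1, -0.37 without cKO 2), and its paralogue Eif4a2 at 243 and 112 normalised CPM against 72.5, 178 and 223, with a log2 fold change of 0.09 ± 0.48. Of the scaffolds, Eif4g3 stood at 202 and 303 normalised CPM against 84.2, 135 and 241, with a log2 fold change of 0.80 ± 0.49 (adjusted p = 0.514). Here WT 1 (241) lay between the cKO libraries, WT 2 and 3 just below cKO 1, and WT 4 to 6 at 87.0 or less. Eif4g1 had a log2 fold change of 0.26 ± 0.43, and Eif4g2, which lacks the eIF4E-binding part, had a log2 fold change of -1.15 ± 0.64. The helicase cofactor Eif4h was the gene with a low p (192 and 62.8 normalised CPM against 110.4, 358 and 432; log2 fold change -1.35 ± 0.61, adjusted p = 0.4), while the other cofactor, Eif4b, had a log2 fold change of -0.17 ± 0.44. Eif4e1b, an oocyte form of the cap-binding protein, had 10 reads in cKO and 1.95 to 8.29 normalised CPM in WT.

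The proteins that hold eIF4E back showed unequal values. Eif4ebp1, the inhibitor that mTORC1 phosphorylates, stood at 93.4 and 27.3 normalised CPM in cKO 1 and 2 and from 59.9 to 231 in WT (median 194), a log2 fold change of -1.51 ± 0.60 (adjusted p = 0.378; -2.74 without cKO 1, -0.97 without cKO 2, -0.68 with detected genes as a covariate). WT 1 (59.9) lay between the cKO libraries and the remaining WT libraries at 151 or more. Eif4ebp2 stood at 69.0 and 31.4 normalised CPM against 55.9, 66.8 and 119, with a log2 fold change of -0.55 ± 0.46 (adjusted p = 0.628; -1.31 without cKO 1, -0.17 without cKO 2). Eif4enif1, the protein that carries eIF4E into the nucleus and represses bound mRNAs, stood at 86.3 and 64.2 normalised CPM against 31.9, 53.3 and 88.6, with a log2 fold change of 0.47 ± 0.46 (adjusted p = 0.679).

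Levels between genes were compared per length, in the deposited TPM. Eef1a1 ranked first on average (mean 2014 TPM) and held rank 1 to 4 in the libraries, with 526 and 271 in cKO, 417 in WT 1 and up to 4300.1 in WT 5. Eif3k (549.6), Eef1g (441), Eef1b2 (434) and Eef1d (431) followed, and the ranges of these 4 across libraries overlapped, so their order is not fixed. Eef1a1 was first in 6 of 8 libraries. In the other 2, WT 1 (639 TPM) and cKO 2 (436 TPM), the first rank was held by Eif2a, which stood at 200.5 TPM in cKO 1 and ranked as low as 29. Eif1 held ranks 3 to 23, and Eif6 ranks 20 to 54. Per length, Eif1 exceeded Eif1b 6.92-fold on the mean over libraries, and Eif4a1 exceeded Eif4a2 3.39-fold. Eef1a2 and Eif5a2 had too few reads for such a ratio. The coding sequences of the first 2 pairs are 81.1% and 79.6% identical, and the values rest on how the authors' tool divided shared reads. Annotated exons of 25 of the 63 members share bases with another gene, 15 of them on the other strand. Eif1ad, a protein with the fold of eIF1A, shares 428 bases with the far more abundant Banf1 (mean 448 against 19.5 TPM), so such values are uncertain where strand is not marked.

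**Figure D4:**
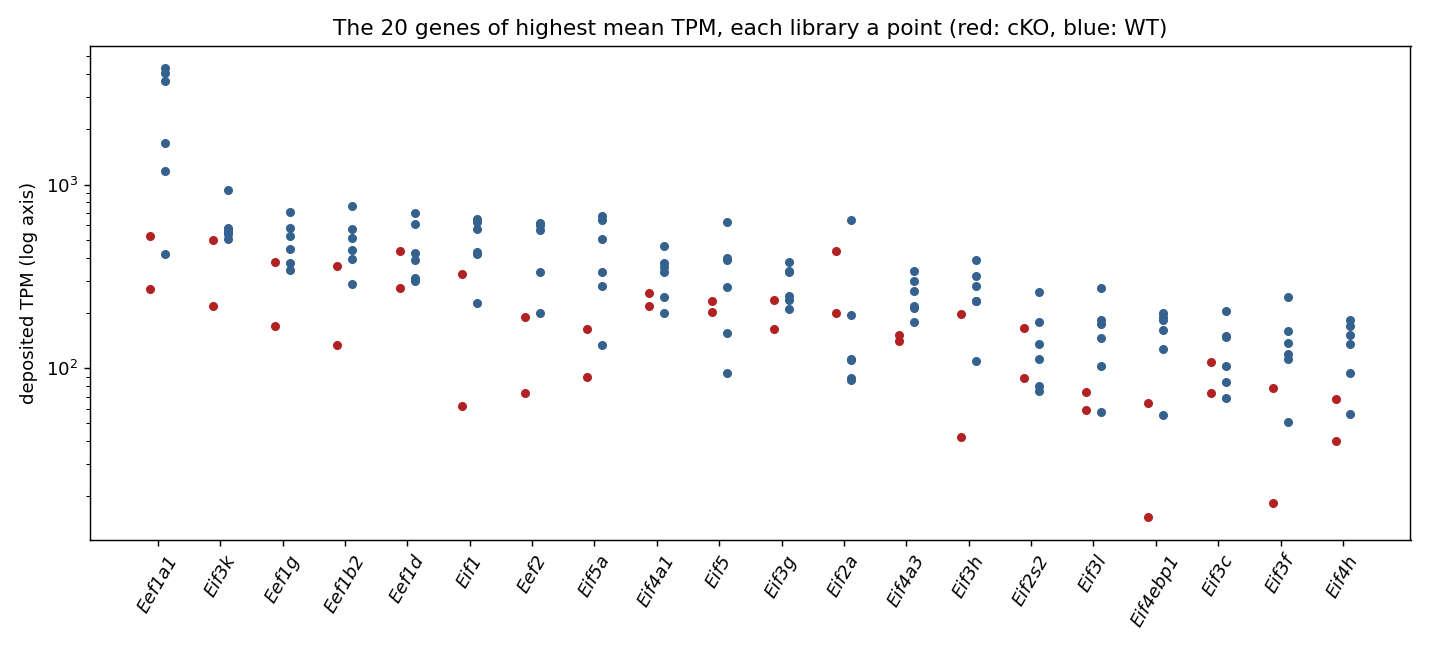
Deposited TPM (log axis) of the 20 members with the highest mean, each point a library, cKO in red and WT in blue. Eef1a1 spans from 271 to 4300.1 TPM, and the lowest point belongs to cKO 2 in 14 of the 20 genes.

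Transcript length was taken from the annotated protein-coding transcript with the longest coding sequence, which need not be the main one in these cells. Of the 14 members with a transcript under 1500 bases 13 were lower in cKO (median -0.83), of the 31 with 1500 to under 3000 bases 24 were (median -0.82), and of the 18 with 3000 or more 9 were (median -0.08). All genes tested had the same order, with medians of -0.73, -0.24 and 0.12. Across genes, which are not replicates, the rank correlation of length with the fold change was 0.33 over the 63 members and 0.26 over 14261 genes with a length. Among the short members the median against the WT mean was -1.62 in cKO 2, -1.18 in WT 1, -0.38 in WT 3 and -0.25 in cKO 1, and from 0.29 to 0.51 in WT 2, 4, 5 and 6. A low level of short members was therefore found in libraries of both groups. Transcript length moved with the fold change in members and in genes at large, and its part in the members' values was not tested.

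Of 88 genes that act on or beside these factors, in 8 lists, none passed the adjusted threshold in edgeR. In all 60 were lower and 28 higher in cKO, 9 lower and 2 higher at an unadjusted p under 0.05, and the median was -0.23; over all genes 8.89% were lower and 3.4% higher at that threshold. In the mTORC1 list 7 of 14 were lower (median 0.03), with Rheb, the GTPase that activates mTORC1, at 26.4 and 17.8 normalised CPM against 17.0, 57.8 and 173 (log2 fold change -1.75 ± 0.79) and Pdcd4, an eIF4A inhibitor, at 11.2 and 6.83 normalised CPM against 13.1, 19.0 and 36.7 (log2 fold change -1.21 ± 0.65). The mTORC1 genes were thus spread to both sides of 0. In the list of eIF2 kinases, phosphatase subunits and ATF4, 4 of 9 were lower (median 0.02), with the double-stranded RNA kinase Eif2ak2 at 30.4 and 83.3 normalised CPM against 16.7, 30.6 and 53.0 (log2 fold change 0.76 ± 0.55) and the amino acid sensor Eif2ak4 at 41.6 and 57.4 normalised CPM against 20.1, 37.4 and 52.2 (log2 fold change 0.48 ± 0.46). Neither kinase had cKO libraries apart from WT. The genes that make hypusine on eIF5A and diphthamide on eEF2 were lower in 5 of 9 (median -0.40). Among them Dph3, needed for diphthamide, stood at 15.7 and 6.83 normalised CPM against 48.4, 63.7 and 82.1, with both cKO libraries below WT (log2 fold change -2.42 ± 0.51; edgeR adjusted p = 0.369, DESeq2 adjusted p = 0.00195). Dohh, the second enzyme of hypusine synthesis, stood at 74.6 and 31.4 normalised CPM against 51.7, 136 and 186 (log2 fold change -1.26 ± 0.55).

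In the termination and recycling list 8 of 10 were lower (median -0.36), with the release factor Etf1 at 29.4 and 20.5 normalised CPM against 45.2, 55.3 and 106 (log2 fold change -1.31 ± 0.49) and the collision sensor Zfp598 at 103 and 95.6 normalised CPM against 37.8, 46.1 and 85.3 (log2 fold change 0.89 ± 0.41). The former was below and the latter above every WT library. Poly(A)-binding and scanning helpers were lower in 8 of 10 (median -0.70), with the m6A reader Ythdf1 at 37.0 and 16.4 normalised CPM against 43.4, 60.2 and 75.3 (log2 fold change -1.12 ± 0.46) and the helicase Ddx3x at 132 and 76.5 normalised CPM against 110.4, 201 and 299 (log2 fold change -0.94 ± 0.49). Selenocysteine elongation had 4 of 5 lower (median -0.93) and values in both directions: the kinase Pstk stood at 7.61 and 16.4 normalised CPM against 32.4, 50.5 and 69.4 (log2 fold change -2.11 ± 0.55; DESeq2 adjusted p = 0.0254), and Secisbp2, which binds the selenocysteine insertion element, at 150.2 and 108 normalised CPM against 46.7, 53.0 and 72.4 (log2 fold change 1.24 ± 0.36; DESeq2 adjusted p = 0.0158). Both cKO libraries of Pstk were below and both of Secisbp2 above every WT library. Mitochondrial translation factors were lower in 7 of 10 (median -0.21), with the elongation factors Tufm at 18.8 and 17.8 normalised CPM against 15.9, 87.3 and 166 (log2 fold change -2.35 ± 0.79) and Tsfm at 31.0 and 13.7 normalised CPM against 22.2, 61.4 and 98.4 (log2 fold change -1.35 ± 0.63); WT 1, at 15.9, had the lowest Tufm value. Of the cytosolic aminoacyl-tRNA synthetase genes 17 of 21 were lower (median -0.44), with the scaffold Aimp2 at 24.4 and 12.3 normalised CPM against 36.3, 50.8 and 73.5 (log2 fold change -1.51 ± 0.51) and the glycine enzyme Gars at 40.1 and 31.4 normalised CPM against 64.8, 85.2 and 138 (log2 fold change -1.34 ± 0.46), both with the cKO libraries below WT.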

How the data were processed

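Granulosa cells of 2 cKO and 6 WT samples were sequenced. Per the submitters' processing notes, HISAT2, Salmon and mm10 were used; their versions and settings are not given in the sources used here. Deposited by the authors were, for each gene and sample, Salmon's estimated counts and TPM. The estimated counts were rounded to whole numbers. The 1548 rows with a transcript identifier in place of a gene name (0.435% to 0.739% of reads) were left out.

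Genes were kept with filterByExpr (minimum count 10, minimum total 15; 15102 genes). The groups were compared with edgeR 4.0.16's quasi-likelihood test on all 8 libraries with TMM scaling (R 4.3.3), with Benjamini-Hochberg adjustment over all genes tested and a threshold of 0.05. Standard errors are the size of the log2 fold change divided by the square root of F. DESeq2 1.42.0 and limma 3.58.1 served as alternatives, as did other filters and scalings, a covariate, a replicate block and leaving out each library. Coordinates are from GENCODE M21 and promoters from RefSeq (GRCm38.p6), which had a window for 48 of 63 members. Paralogues were compared by coding sequence in place of protein.

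Members named by rule were a set list of well-known factors (Eif1, Eif2s1, Eif4e, Eif4ebp1, Eif4ebp2, Eif5a, Eif6, Eef1a1, Eef1b2, Eef2, Eef2k), both genes of the compared paralogue pairs, the 6 with the smallest p in each direction and the 5 with the highest mean TPM. In each pathway list the 2 genes with the smallest p were named, and 6 list genes are not analysed here. Members and lists were chosen with earlier results of these data known, and other genes are named for comparison after their values were seen. Libraries of 1 group differed by more than sampling noise in all 16 pairs (chi-square per degree of freedom 13.0 to 83.3).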

Additional observations from a re-analysis of the deposited data

Results flagged for a closer look

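In 7 of 51 sets of 6 WT values, 1 library stood far from the others by Dixon's gap ratio (above its critical value). Chance gives about 1 in 20 for independent sets of normally distributed values. These sets were not on a log scale and came from the same 6 libraries, so the count of 7 cannot be set against that rate. Among members, Eif2a in WT 1 (1351 normalised CPM) and Eif4ebp2 in WT 2 (118.9) were the libraries that stood apart. In the pathway lists these were Etf1 in WT 6 (105.8) and Secisbp2 in WT 2 (72.4). Of the shares of reads, the oocyte markers in WT 6 (0.180%), the endothelial markers in WT 1 (0.0518%) and the ribosomal protein genes in WT 2 (14.9%) stood high.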

How the results depend on the processing

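Of 280 recomputed counts and medians 236 stayed within the spread or within 1.5 times, as did all 40 shares of reads. Of 800 recomputed single-gene values 757 kept their direction and side of the threshold, 32 turned in sign and 11 passed the threshold newly. The low depth of cKO 2, with 50 of 63 members at 10 or more reads, limits the low genes, and 2 cKO libraries limit every p. The cause of each change below was not tested.

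Called members numbered 2 in edgeR without a filter (Eif6 and Eif1ax) and 3 in DESeq2, against 0. Members lower at an unadjusted p under 0.05 numbered 20 without a filter (31.7%; 7.59% of all genes in that fit), 20 in limma-voom (31.7%; 6.9%), 1 with a replicate block (1.59%; 0.795%), 0 with detected genes as a covariate (all genes 2.31%), 1 with libraries numbered 1 and 2 alone (1.67%; 1.22%), and 2 to 22 with single libraries left out (3.17% to 34.9%; 3.5% to 13%). Members higher numbered 3 in limma-voom, where 1453 of 15102 genes were higher. They numbered 0 to 2 with single WT libraries left out. The 2 were found without WT 1, where 1075 of 14923 genes were higher. The members' median ranged from -1.38 to -0.22 with single libraries left out. Over all genes edgeR called 0 (1342 lower and 513 higher at an unadjusted p under 0.05), 478 without a filter, and DESeq2 269.

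The labels do not pair the 2 shared replicate numbers. Deviations of same-numbered samples correlated at -0.29 (number 1) and -0.17 (number 2) over 15102 genes. With the block, Eif2s1 stood at 0.24, Eif4e at -0.14, Eef2k at -0.77 and Eef2kmt at -0.21. Pathway medians with the block were 0.030 (termination), -0.30 (poly(A)) and 0.31 (mitochondrial). With it, 2 pathway genes were lower at the unadjusted threshold (0.795% of all genes were).

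With detected genes as a covariate, log2 fold changes were 0.11 for Eif2s1, 0.38 for Eef1b2, -0.55 for Eif4g3, -0.28 for Eif5b, -0.39 for Eif3a, -0.12 for Eif2a and -0.56 for Eif2ak4. Pathway medians were then 0.14 (termination), -0.46 (poly(A)), 0.66 (hypusine and diphthamide) and -1.63 (selenocysteine), with 3 pathway genes lower (2.31% of all genes were). With libraries numbered 1 and 2 alone, Eif2s1 stood at 0.30, Eif4e at -0.17, Eef2k at -0.41, Eif2a at -0.13 and Eef2kmt at -0.045. Medians were 0.08 (termination), -0.29 (poly(A)), -0.0013 (hypusine and diphthamide) and 0.36 (mitochondrial), with 3 pathway genes lower (1.22% of all genes were). With limma on log2(TPM + 1) and log2(TPM + 0.1), Eef2k stood at -0.65 and -0.67, Eif4a2 at -0.074 and -0.074, the termination median at -0.059 and -0.059 and the synthetase median at -0.18 and -0.18. The selenocysteine median was -0.35 with log2(TPM + 1). In limma-voom Eif4a2 stood at -0.13, without a filter Eif4e at -0.034, and with at least 10 reads in 6 libraries the hypusine and diphthamide median was 0.055.

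With single libraries left out, medians ranged from -0.35 to 0.12 (mTORC1), -0.62 to 0.22 (eIF2 kinases), -0.68 to -0.13 (termination), -1.18 to -0.51 (poly(A)), -1.36 to -0.24 (hypusine and diphthamide), -0.73 to 0.076 (mitochondrial) and -0.70 to -0.20 (synthetases). Pathway genes lower at the unadjusted threshold numbered 2 to 13. Single genes that turned in sign ranged from -0.073 to 0.19 (Eif4e), -1.39 to 0.71 (Eef2k), -0.64 to 0.47 (Eif4a2), -0.41 to 0.71 (Eef2kmt) and -0.21 to 1.27 (Eif2ak2).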
